A study of Mus musculus with 21 samples.

Results

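The genes described here protect genomic imprints or methylate lysine 9 of histone H3 (H3K9), and were followed through haploid and diploid mouse embryonic stem (ES) cells, fibroblasts and round sperm. The 8 genes are Dppa3, Zfp57, Trim28, Setdb1, Ehmt1, Ehmt2, Suv39h1 and Suv39h2. Every probe set of the Affymetrix mouse expression array whose platform annotation gives a single gene symbol was taken where that symbol was 1 of these 8 genes. This gave 13 of the 34945 single-symbol probe sets on the array, for 7 of the 8 genes among 18193 genes in all. Suv39h1 had no probe set under this rule and was not analysed here. Dppa3, Zfp57 and Ehmt1 had 1 probe set each, Trim28 and Ehmt2 had 2 each, and Setdb1 and Suv39h2 had 3 each. All 13 passed the filter on low values in at least 1 group of arrays. Where a gene had several, the probe set with the highest mean over the arrays represents it and the others are given beside it.

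Imprinted genes are expressed from the maternal or the paternal copy only, because DNA methylation set in one germline is kept on that copy after fertilization. ZFP57, a KRAB zinc finger protein, binds the methylated copy of imprinting control regions and recruits TRIM28 (also called KAP1), a scaffold that brings in SETDB1, the enzyme that trimethylates H3K9 there. DPPA3 (also called STELLA or PGC7) binds chromatin carrying dimethylated H3K9 and shields DNA methylation in the fertilized egg. EHMT1 (GLP) and EHMT2 (G9a) form a heterodimer that mono- and dimethylates H3K9, and SUV39H1 and SUV39H2 trimethylate H3K9 in pericentromeric heterochromatin, where HP1 proteins bind the mark.

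The study hybridised total RNA from 7 groups of 3 arrays, 21 in all, to compare androgenetic haploid ES (ahES) cells with ES cells, fibroblasts and round sperm. The ahES lines were AH129-5, AH129-N1 and AH129-NC1 and the diploid ES lines were CS1-1 and R1, all of 129 Sv background and all grown in N2B27 medium with 2i and LIF. Mouse embryonic fibroblasts (MEF) were of CD1 background and were grown in DMEM with serum, so strain and medium differ together with cell type. Round sperm, of 129 Sv background, were freshly isolated from testis. The ahES cells and the round sperm were sorted by flow cytometry to haploid cells in G0/G1, and no such sort is given for the diploid ES lines or the fibroblasts, so ploidy and sorting cannot be told apart between haploid and diploid ES cells. Each line is 1 derivation, so a haploid or a diploid property rests on 3 and 2 lines. The 3 arrays of a group are labelled biological replicates with no word on separate cultures or animals, so p-values measure the spread between these samples. In such bulk RNA, fewer cells expressing a gene and less RNA per cell cannot be told apart.

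Levels are given as log2 of the MAS5 signal plus 9.73 signal units, so 1 unit is a 2-fold step for all but the dimmest probe sets. A group was counted as near background where its mean lay at or below the 40th percentile of its arrays, which was 5.44 to 5.61 in the 7 groups. A fold against such a group is written as "at least". A difference was called where limma's moderated test gave an adjusted p under 0.05 (Benjamini-Hochberg over all single-symbol probe sets that passed the filter) and the fold reached 2. The ahES lines were compared with the diploid lines on the 15 ES arrays with the line as a random block. Every other comparison used all 21 arrays, with a mean per group and no line block. Errors of ahES cells against MEF or round sperm thus hold the spread between arrays of a group, not that between lines.

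Marker genes of the labelled cell kinds were checked first. All 6 pluripotency markers were above background in each ES line, and in MEF Sox2 alone was. In round sperm 3 of the 6 were (Esrrb, Pou5f1 and Zfp42). All 7 round spermatid markers were above background in round sperm, with a summed level of 16.90 to 17.49, against 6.92 to 8.15 in the other groups. All 5 spermatocyte markers were also above background there, with a summed level of 13.29 to 13.46, against 6.60 to 10.88 in the other groups. The 5 spermatogonia markers had summed levels of 11.40 to 12.43 in the ES lines and 10.27 to 10.51 in MEF. In round sperm all 5 were above background, but their summed level was the lowest, at 8.78 to 9.13. Of the Sertoli cell genes, 3 of 5 were above it there (Fshr, Gata4 and Sox9), and Amh and Wt1 were near background. Of the Leydig cell genes, 2 of 4 were above it (Cyp17a1 and Star), and Cyp11a1 and Hsd3b1 were near background. The summed level of 7 fibroblast markers was 16.41 to 16.47 in MEF, 14.00 to 14.54 in the ahES lines and R1, and 10.96 to 11.35 in CS1-1. All 7 of these markers were above background in every group, round sperm included, where their summed level was 10.18 to 10.30.

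RefSeq promoter sequences (GRCm38.p6) were found for 7 of the 8 genes; Dppa3 was not among them. The 4 shown are those of the 3 methyltransferase genes whose representing probe sets were called between round sperm and MEF and, for contrast, a start of Zfp57. Each runs 5′ to 3′ from 250 to 21 bases before an annotated start. Capitals mark the GC box (GGGCGG, or CCGCCC on the other strand) and the core of the cAMP response element (TGACG, or CGTCA on the other strand, which overlap in the full palindrome TGACGTCA). The first lies at chr2:24919630-24919859 on the minus strand, the second at chr17:34898224-34898453 on the plus strand, the next at chr2:3475007-3475236 on the minus strand and the last at chr17:37000913-37001142 on the plus strand.
Ehmt1: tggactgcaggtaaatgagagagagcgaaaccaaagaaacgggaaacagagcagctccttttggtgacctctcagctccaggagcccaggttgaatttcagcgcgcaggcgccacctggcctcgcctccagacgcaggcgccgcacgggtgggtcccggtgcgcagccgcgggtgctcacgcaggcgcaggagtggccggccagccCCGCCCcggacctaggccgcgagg
Ehmt2: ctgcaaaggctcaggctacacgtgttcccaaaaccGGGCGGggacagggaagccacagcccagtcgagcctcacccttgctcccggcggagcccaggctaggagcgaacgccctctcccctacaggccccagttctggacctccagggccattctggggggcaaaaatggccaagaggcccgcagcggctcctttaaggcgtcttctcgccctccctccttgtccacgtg
Suv39h2: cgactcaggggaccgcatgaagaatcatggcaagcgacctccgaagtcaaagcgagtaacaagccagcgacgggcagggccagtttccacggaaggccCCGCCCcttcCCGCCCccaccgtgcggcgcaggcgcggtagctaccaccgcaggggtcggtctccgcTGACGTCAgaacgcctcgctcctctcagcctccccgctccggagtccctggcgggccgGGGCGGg
Zfp57: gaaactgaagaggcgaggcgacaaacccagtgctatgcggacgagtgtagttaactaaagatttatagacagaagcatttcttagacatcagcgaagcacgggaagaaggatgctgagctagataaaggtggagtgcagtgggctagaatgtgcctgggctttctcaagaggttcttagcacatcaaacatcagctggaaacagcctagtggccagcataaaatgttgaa

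The window of Suv39h2 holds 3 GC boxes and 1 full TGACGTCA, which 1.28% of 32851 promoters of this length hold. The Ehmt1 window and the Ehmt2 window shown hold 1 GC box each and no TGACG, and the second annotated Ehmt2 start holds 4 GC boxes. For comparison, 29.8% of promoters hold a GC box and 15.9% a TGACG on either strand. The 3 annotated Zfp57 starts hold no GC box and 3, 6 and 7 CpG, against 21 in the Ehmt1 window, 13 and 35 in the Ehmt2 windows, 26 in the Suv39h2 window and a median of 5 over all promoters. TATAAA, which 11.8% of promoters hold on either strand, occurs in the Zfp57 window shown on the other strand, where the printed strand reads TTTATA. These matches describe letters in a window and were not tested as binding sites. Other motifs were searched for in every member window too: the CCAAT box, ETS, NRF1 and E2F sites and the hexamer TGCCGC. The 1.28% is not adjusted for these searches, so it does not mark the Suv39h2 window as unusual.

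Dppa3 (probe set 1424295_at) was the most variable of the 7 genes among ES lines and was near background outside them. It read 12.67, 12.52 and 12.35 on the AH129-5 arrays, 13.20, 13.05 and 13.24 in AH129-N1, and 10.71, 10.91 and 10.71 in AH129-NC1. The diploid lines read 11.50, 11.48 and 11.56 in CS1-1 and 10.99, 10.96 and 10.93 in R1. So AH129-N1 and AH129-5 lay above both diploid lines, and AH129-NC1 lay below them, with no overlap between the arrays of any 2 lines. MEF read 5.29, 4.50 and 4.27 and round sperm 5.87, 3.88 and 4.48, so the means of 4.69 ± 0.53 and 4.74 ± 1.02 (SD, n = 3 each) were both near background.

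The 5 line means of Dppa3 spanned 2.38 log2 units, a 5.22-fold range, against an SD within lines of 0.10. AH129-N1 exceeded AH129-NC1 by 2.38 ± 0.32 (SE, adjusted p = 6.78e-05, limma), and AH129-5 exceeded it by 1.73 (5.22-fold and 3.33-fold, adjusted p = 8.52e-04 for the second). In the order AH129-N1, AH129-5, CS1-1, R1, AH129-NC1, the step from AH129-5 to CS1-1 passed an adjusted p of 0.05 (1.00 ± 0.32, adjusted p = 0.0193), and the other 3 steps between ES lines, of 0.65, 0.56 and 0.18, did not. Those errors take in the wide spread of the dim MEF and round sperm arrays. In a limma fit on the 15 ES arrays alone, added after the values were seen, the error of a step was 0.07, and the 0.65 from AH129-N1 to AH129-5 and the 0.56 from CS1-1 to R1 then gave adjusted p-values of 1.42e-06 and 4.97e-06, while R1 and AH129-NC1 gave 0.0604.

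As a group the ahES arrays averaged 12.15 ± 1.07 (SD, n = 9) and the diploid ES arrays 11.24 ± 0.31 (n = 6) for Dppa3. The difference of 0.92 ± 0.45 was not called (adjusted p = 0.246). Without AH129-NC1 it was 1.60 ± 0.19 and was called (adjusted p = 4.24e-05), so this line decides the call, and without AH129-N1 it was 0.41 ± 0.39 (adjusted p = 0.617). Against MEF and round sperm, where Dppa3 was near background, ahES cells were at least 105-fold and at least 93.7-fold higher (adjusted p = 1.03e-14 and 1.95e-15, limma). Both p-values leave out the spread between the ahES line means, whose SD was 1.23.

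**Figure D1:**
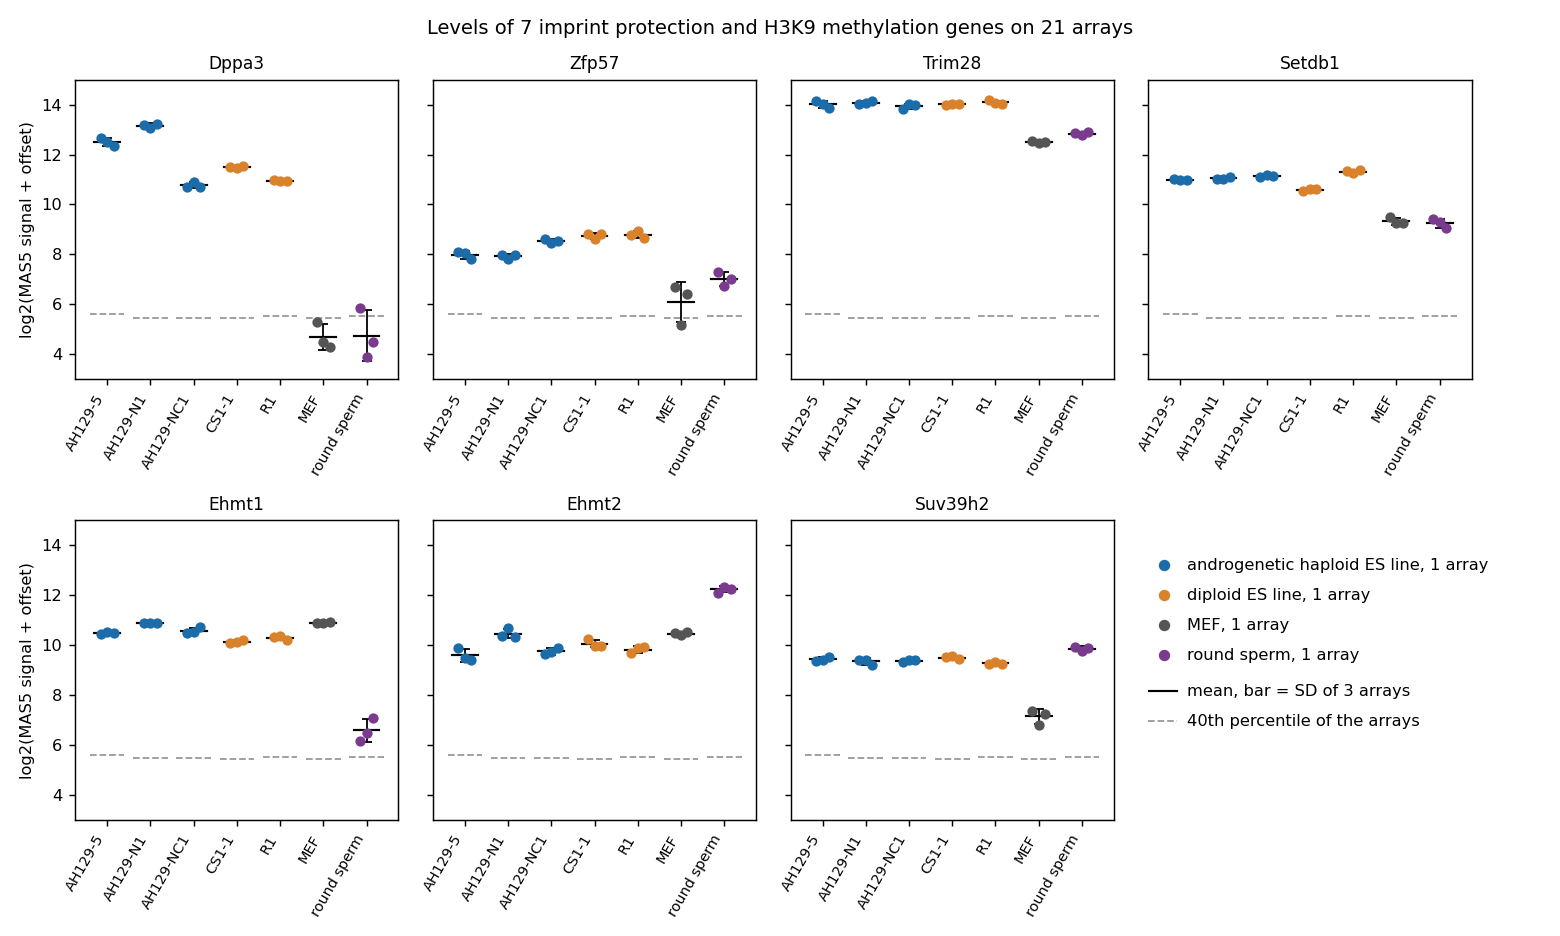
Level of each gene, by its representing probe set, on every array, as log2(MAS5 signal + 9.73), by group; points are arrays, black bars the mean and SD of 3 arrays, and dashed lines the mean 40th percentile of the group's arrays. Dppa3 spans 10.71 to 13.24 in the ES lines and is near background in MEF and round sperm, Ehmt1 falls to a mean of 6.58 in round sperm, and Ehmt2 is highest there at 12.24.

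Zfp57, whose protein finds the methylated imprint for the silencing complex, ran in nearly the opposite order to Dppa3 among the ES lines. It read 8.09, 8.04 and 7.80 in AH129-5, 7.96, 7.82 and 7.99 in AH129-N1 and 8.62, 8.44 and 8.55 in AH129-NC1. The diploid lines read 8.81, 8.61 and 8.81 in CS1-1 and 8.79, 8.92 and 8.66 in R1. AH129-NC1, the ahES line with the lowest Dppa3, thus overlapped CS1-1 for Zfp57, and the other ahES lines lay below every diploid array. MEF read 6.69, 5.17 and 6.40 and round sperm 7.30, 6.73 and 7.02, both below every ES array.

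The ahES mean of Zfp57 was 8.15 ± 0.31 (SD, n = 9) and the diploid mean 8.77 ± 0.11 (n = 6). The difference of −0.62 ± 0.20 gave an adjusted p of 0.0491 (limma) and was 1.54-fold, short of the 2-fold limit. With 1 mean per line the adjusted p was 0.264, and without any 1 line it ran from 0.0188 without AH129-NC1 to 0.165 without AH129-N1. AH129-5 and AH129-N1 lay 0.57 and 0.61 below AH129-NC1, with adjusted p-values of 0.127 and 0.107 on all 21 arrays and of 8.05e-04 and 4.59e-04 on the 15 ES arrays.

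Compared with other cell kinds, Zfp57 was 4.16-fold higher in ahES cells than in MEF (2.06 ± 0.21, adjusted p = 1.39e-08) and 2.19-fold higher than in round sperm (1.13 ± 0.21, adjusted p = 3.22e-05). The second call rests on settings: the difference was 0.59 after quantile normalization, 0.93 without AH129-NC1 and 0.99 without round sperm replicate 2, each still at an adjusted p under 0.05 but short of 2-fold. Round sperm exceeded MEF by 0.93 ± 0.25 (adjusted p = 0.00194), also short of 2-fold, and by 1.42 after quantile normalization.

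Trim28, the scaffold of the complex, was the least variable of the 7 genes among the ES lines. Its 15 ES arrays lay between 13.83 and 14.17, and the 5 line means spanned 0.15, a 1.11-fold range. MEF read 12.56, 12.45 and 12.50 and round sperm 12.85, 12.77 and 12.90, all below the ES arrays. No step between neighbouring ES lines passed an adjusted p of 0.05, and ahES and diploid ES cells differed by −0.04 ± 0.10 (adjusted p = 0.884). By probe set 1456308_x_at it was 2.84-fold higher in ahES cells than in MEF (1.51 ± 0.06) and 2.25-fold higher than in round sperm (1.17 ± 0.06, adjusted p = 8.91e-16 and 1.09e-14). The second probe set gave 2.62-fold and 2.10-fold, and its difference from round sperm was 0.95, short of 2-fold, with median-centred arrays. Round sperm lay 0.34 ± 0.07 above MEF (1.26-fold, adjusted p = 9.86e-05), short of 2-fold.

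Setdb1, the enzyme that TRIM28 recruits to trimethylate H3K9, separated the diploid lines from each other with the ahES lines between them. CS1-1 read 10.54, 10.61 and 10.63, and R1 read 11.33, 11.25 and 11.38. The ahES lines read 11.02, 11.00 and 10.97 in AH129-5, 11.03, 11.04 and 11.09 in AH129-N1, and 11.09, 11.18 and 11.15 in AH129-NC1. No ahES array overlapped either diploid line. CS1-1 was 1.66-fold below R1 (−0.73 ± 0.08, adjusted p = 1.12e-06, limma), short of the 2-fold limit, and AH129-5, the next line up, exceeded CS1-1 by 0.41 ± 0.08 (adjusted p = 5.55e-04). The dimmer Setdb1 probe sets differed between CS1-1 and R1 by −0.64 ± 0.32 and −0.69 ± 0.29 (adjusted p = 0.139 and 0.0796 on all 21 arrays, 0.0445 and 0.0193 on the 15 ES arrays), also short of 2-fold. CS1-1 is also the ES line with the low summed level of fibroblast markers given above, and the part of those cells in its Setdb1 level was not tested.

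Because the diploid lines lay on either side, the ahES mean of Setdb1 differed from the diploid mean by 0.11 ± 0.14 (adjusted p = 0.734). It was 0.47 ± 0.11 without R1 (adjusted p = 0.00651) and −0.26 ± 0.11 without CS1-1 (adjusted p = 0.197), so the sign depends on which diploid line is used. MEF read 9.49, 9.24 and 9.26 and round sperm 9.41, 9.29 and 9.06, which overlapped each other and lay below all ES arrays. Setdb1 was 3.33-fold higher in ahES cells than in MEF (1.74 ± 0.07) and 3.52-fold higher than in round sperm (1.82 ± 0.07, adjusted p = 2.72e-15 and 1.85e-16). Both other probe sets were near background in MEF and round sperm, and ahES cells were at least 2.40-fold higher by each of them. Round sperm and MEF differed by −0.08 ± 0.08 (adjusted p = 0.372), and by 0.43 ± 0.08 after quantile normalization (adjusted p = 2.61e-05), so the order of these 2 groups depends on the scaling.

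**Figure D2:**
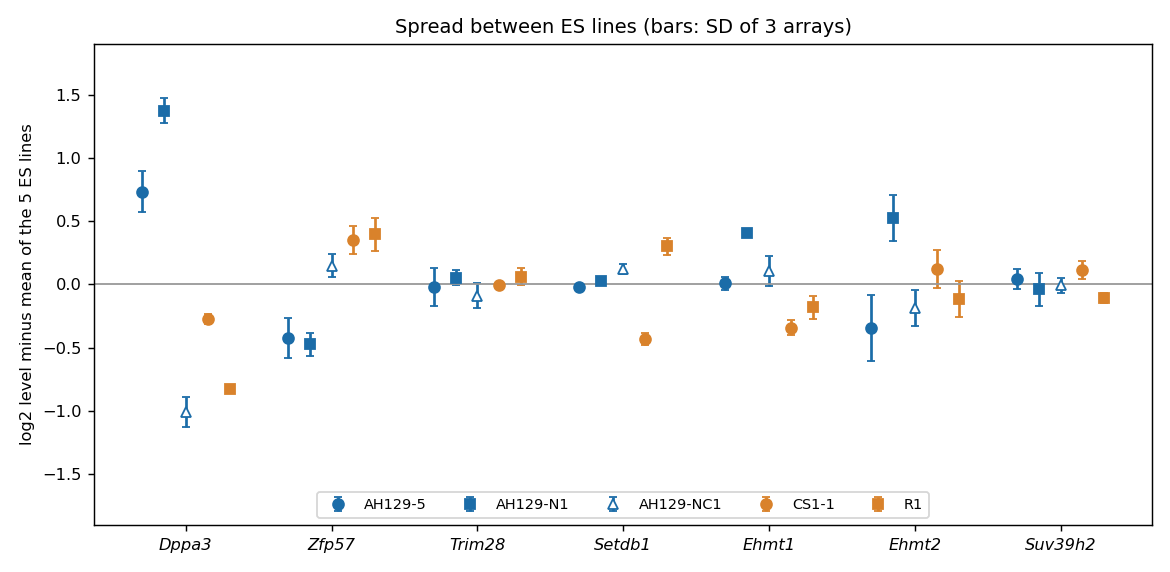
Mean level of each gene in each ES line minus the mean of the 5 line means, in log2 units, with the SD of 3 arrays as bars; blue marks are ahES lines and orange marks diploid lines. The Dppa3 means span 2.38 units, Zfp57 runs in nearly the opposite order, CS1-1 and R1 stand at opposite ends for Setdb1, and Trim28 spans 0.15.

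Ehmt1 and Ehmt2, the subunits of the H3K9 dimethylating heterodimer, went in opposite directions in round sperm. Ehmt1 read 6.14, 6.49 and 7.10 in round sperm against 10.87, 10.88 and 10.93 in MEF and 10.07 to 10.89 on the 15 ES arrays. Ehmt2 read 12.11, 12.35 and 12.25 in round sperm against 10.47, 10.41 and 10.51 in MEF and 9.40 to 10.67 on the ES arrays. For both genes no round sperm array overlapped any other array. Levels of different probe sets are not on a common scale, so the genes are compared by their differences between groups.

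Ehmt1 was 16.8-fold higher in ahES cells than in round sperm (4.07 ± 0.12, adjusted p = 1.85e-18, limma), and MEF were 19.9-fold higher than round sperm (4.31 lower in round sperm, SE 0.15, adjusted p = 2.84e-17). Ehmt2 was 4.93-fold higher in round sperm than in ahES cells (−2.30 ± 0.10 as ahES minus round sperm, adjusted p = 1.92e-15) and 3.42-fold higher than in MEF (1.77 ± 0.12, adjusted p = 8.22e-12). The dimmer Ehmt2 probe set read 6.70, 8.14 and 8.43 in round sperm and was near background in 4 of the 5 ES lines. By it round sperm were at least 4.20-fold above ahES cells (adjusted p = 3.73e-07) and 4.03-fold above MEF (2.01 ± 0.43, adjusted p = 1.79e-04). The median difference over all probe sets was 0.53 for ahES minus round sperm and −0.55 for round sperm minus MEF as deposited, and 0.30 and −0.23 after quantile normalization. All the Ehmt1 and Ehmt2 differences of this paragraph kept their call under both scalings.

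Round sperm arrays also differed from the others in the signal of control probe sets. The Actb 3′ probe set exceeded the 5′ one by 0.74 ± 0.25 in round sperm (SD, n = 3), 0.55 ± 0.07 in ahES cells (n = 9) and 0.34 ± 0.06 in MEF (n = 3). For Gapdh the values were 0.55 ± 0.16, −0.24 ± 0.08 and −0.21 ± 0.04. The part of RNA quality in the round sperm levels was not tested. Nor was that of other testis cells, whose markers are given above.

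Among ES cells, Ehmt1 was the gene of the 7 whose ahES and diploid arrays did not overlap. The ahES lines read 10.43, 10.53 and 10.49 in AH129-5, 10.87, 10.87 and 10.89 in AH129-N1 and 10.50, 10.52 and 10.72 in AH129-NC1. The diploid lines read 10.07, 10.13 and 10.19 in CS1-1 and 10.31, 10.37 and 10.19 in R1. The lowest ahES array thus lay 0.06 above the highest diploid array. The share of all genes without such overlap was not counted. Single lines were also often apart: the arrays of 5 of the 7 genes did not overlap between CS1-1 and R1, and those of 3 to 5 in the pairs of ahES lines. That share was not counted over all genes either, so a lack of overlap is not read as particular to Ehmt1. The means of Ehmt1 were 10.65 ± 0.19 (SD, n = 9) in ahES and 10.21 ± 0.11 (n = 6) in diploid ES cells. The difference of 0.44 ± 0.13 was 1.35-fold (adjusted p = 0.0323, limma), short of the 2-fold limit. With 1 mean per line the adjusted p was 0.280, and without AH129-N1 the difference was 0.32 ± 0.14 (adjusted p = 0.163). MEF and AH129-N1 averaged 10.89 and 10.88 (adjusted p = 0.938), and no step between neighbouring ES lines passed an adjusted p of 0.05 on all 21 arrays. On the 15 ES arrays alone, the steps from AH129-N1 to AH129-NC1 (0.30) and from AH129-5 to R1 (0.20) did, with adjusted p-values of 0.00334 and 0.0266.

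Ehmt2 did not separate haploid from diploid ES cells (−0.01 ± 0.23, adjusted p = 0.994) but set AH129-N1 apart. It read 10.37, 10.67 and 10.34 in AH129-N1, 9.89, 9.49 and 9.40 in AH129-5 and 9.64, 9.71 and 9.90 in AH129-NC1. CS1-1 read 10.23, 9.98 and 9.97 and R1 read 9.67, 9.88 and 9.93. Every AH129-N1 array was above every other ES array, and its mean of 10.46 equalled that of MEF to 2 decimals. AH129-N1 exceeded AH129-5 by 0.87 ± 0.12 (1.82-fold, adjusted p = 3.09e-05) and AH129-NC1 by 0.71 ± 0.12 (1.64-fold, adjusted p = 4.25e-04), both short of 2-fold. The difference from AH129-5 passed 2-fold with median-centred arrays (1.02) and without AH129-5 replicate 1 (1.01). The dimmer probe set read 5.81, 6.50 and 5.70 in AH129-N1, the ES line in which it was above background, and was called higher there than in AH129-NC1 (1.83 ± 0.42, adjusted p = 0.00519, at least 1.46-fold), a call lost with an offset of 50 (0.83). MEF exceeded the ahES mean by 1.44-fold in Ehmt2 (adjusted p = 6.99e-05, limma), short of 2-fold. That p-value leaves out the spread between the ahES line means, whose SD was 0.46. AH129-N1 alone did not differ from MEF in Ehmt2 (adjusted p = 0.987, limma). By the dimmer probe set MEF were called higher than the ahES mean only without AH129-N1 (ahES minus MEF −1.09). Against AH129-NC1 alone, which was near background by it, MEF were also called higher (AH129-NC1 minus MEF −1.57 ± 0.42, adjusted p = 0.00261).

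Suv39h2, an enzyme that trimethylates H3K9, known for its expression in testis, gave answers that depend on the probe set. The representing probe set, 1422979_at, read 9.94, 9.75 and 9.90 in round sperm, 9.20 to 9.57 on the 15 ES arrays and 7.37, 6.82 and 7.26 in MEF. So round sperm lay above every ES array, and MEF well below. Its 5 ES line means spanned 0.22, and ahES and diploid ES cells differed by −0.00 ± 0.14 (adjusted p = 0.993). It was 4.71-fold higher in ahES cells than in MEF (2.23 ± 0.10, adjusted p = 1.27e-14) and 6.54-fold higher in round sperm than in MEF (2.71 ± 0.12, adjusted p = 2.89e-15). Round sperm exceeded ahES cells by 1.39-fold (−0.48 ± 0.10 as ahES minus round sperm, adjusted p = 1.14e-04), short of 2-fold.

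The probe set 1436561_at placed round sperm with MEF instead. It read 5.86, 5.59 and 4.13 in round sperm and 4.95, 5.64 and 5.49 in MEF, both near background, against 7.14 to 8.13 on the ES arrays. By it ahES cells were at least 3.92-fold above round sperm (adjusted p = 8.85e-09) and at least 4.23-fold above MEF (adjusted p = 5.93e-08). The probe set 1433996_at separated the groups less, with 8.20, 7.73 and 8.39 in round sperm, 8.13, 8.10 and 8.03 in MEF and 8.15 to 9.43 on the ES arrays. Its differences of 0.70 from MEF and 0.68 from round sperm were not called (adjusted p = 0.00904 and 0.00827, 1.63-fold and 1.60-fold). Of the single ES lines, CS1-1 alone was called against MEF by it (1.01 ± 0.28, 2.02-fold, adjusted p = 0.00299), and CS1-1 lay 0.99 above round sperm (adjusted p = 0.00248), short of 2-fold. When the probe sets were averaged, the ahES mean exceeded round sperm by 0.88 ± 0.11 (adjusted p = 2.82e-07), the opposite sign to the representing probe set, and round sperm exceeded MEF by 0.86 ± 0.13, short of 2-fold. Over the 21 arrays the 3 probe sets of Suv39h2 correlated with each other at 0.34, 0.41 and 0.59 (Pearson's r), while those of Trim28, Setdb1 and Ehmt2 correlated at 0.88 to 0.99. These correlations are a description over 7 groups of 3 arrays. Where the probe sets lie on the Suv39h2 transcripts was not analysed here.

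**Figure D3:**
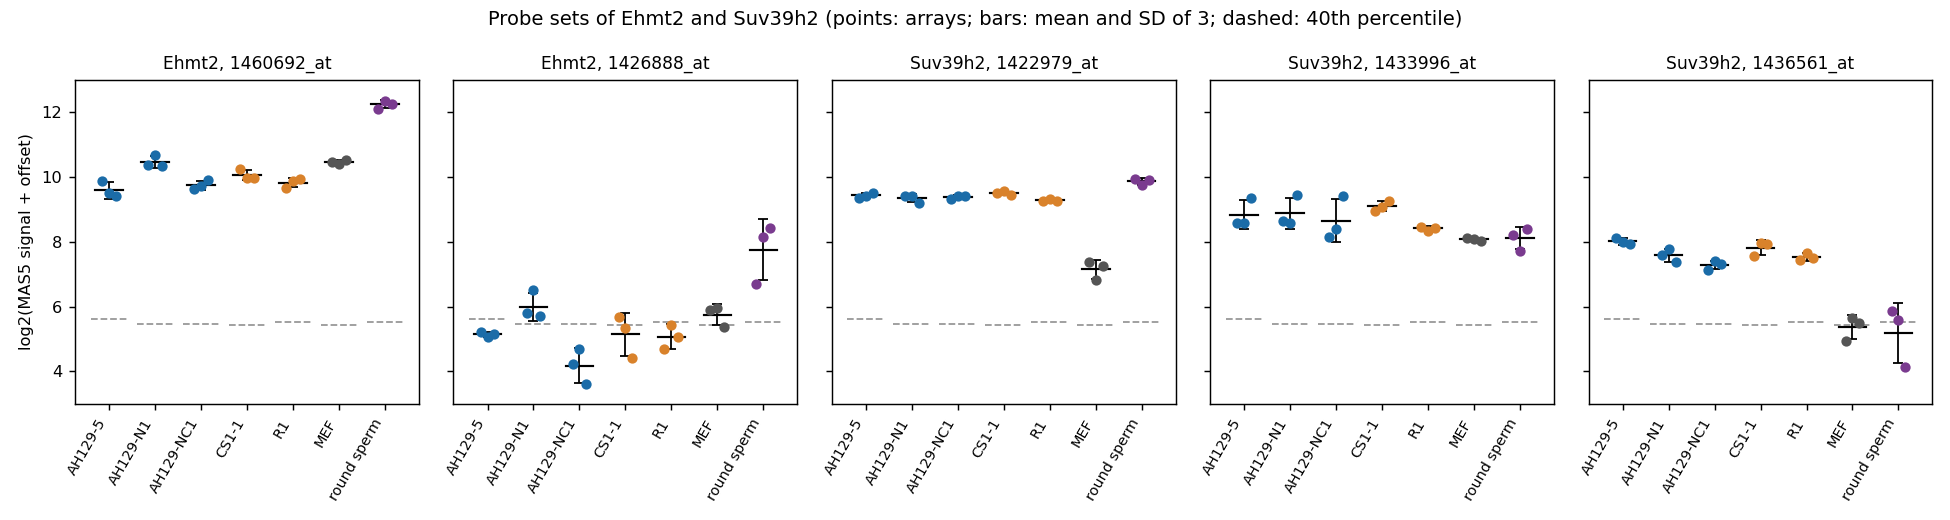
Level of each probe set of Ehmt2 and Suv39h2 on every array, as log2(MAS5 signal + 9.73), by group, with the mean and SD of 3 arrays and the mean 40th percentile as dashed lines. Both Ehmt2 probe sets are highest in round sperm (means 12.24 and 7.76), while the Suv39h2 probe sets place round sperm at 9.86, 8.11 and 5.19.

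Counted over the 7 genes, each by its representing probe set, none was called between ahES and diploid ES cells by limma, where 4.88% of the 12880 genes tested were called, 3.28% higher and 1.59% lower. At an unadjusted p under 0.05 there were 2, Ehmt1 higher and Zfp57 lower, and these 2 also passed an adjusted p of 0.05 without reaching 2-fold. The share of all genes at either limit without the fold was not counted. Such counts, here and below for the line pairs and lists, are thus given without a background and are not read as a trait of these genes. The median difference of the 7 genes was 0.00, against −0.03 over all genes tested. Without AH129-NC1 the count of called genes was 1, Dppa3. The cell cycle lists stood beside this comparison as follows: 0 of 16 S phase genes and 0 of 17 G2/M genes were called, with medians of −0.17 and −0.23 and with 5 and 8 genes lower at an unadjusted p under 0.05. Of the 7 fibroblast markers 2 were called higher in ahES cells (median 1.47). Of the same lists, 10 S phase and 7 G2/M genes were higher in ahES cells than in MEF with none lower, and 13 and 7 were higher than in round sperm with 0 and 3 lower. The part of cell cycle stage and of fibroblast RNA in the members' values was not tested.

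Between ahES cells and MEF, 5 of 7 genes were higher (Dppa3, Zfp57, Trim28, Setdb1 and Suv39h2) and none lower, against 21.2% higher and 42.3% called in either direction of 13224 genes. This count was 5 under every alternative run, the omission of each ahES line included. The median difference was 1.74, against 0.08 over all genes. Between ahES cells and round sperm, 5 were higher (Dppa3, Zfp57, Trim28, Setdb1 and Ehmt1) and 1 lower (Ehmt2), but 73.1% of 14789 genes were called in that comparison, 40.8% higher and 32.3% lower, so a count of 6 of 7 is near the background. The median was 1.17, against 0.32. Between round sperm and MEF, Ehmt2 and Suv39h2 were higher and Ehmt1 lower of 6 tested (Dppa3 did not pass the filter), and 76.1% of 14431 genes were called, 34.4% higher and 41.7% lower. These 3 comparisons share arrays, so their counts are not independent.

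**Figure D4:**
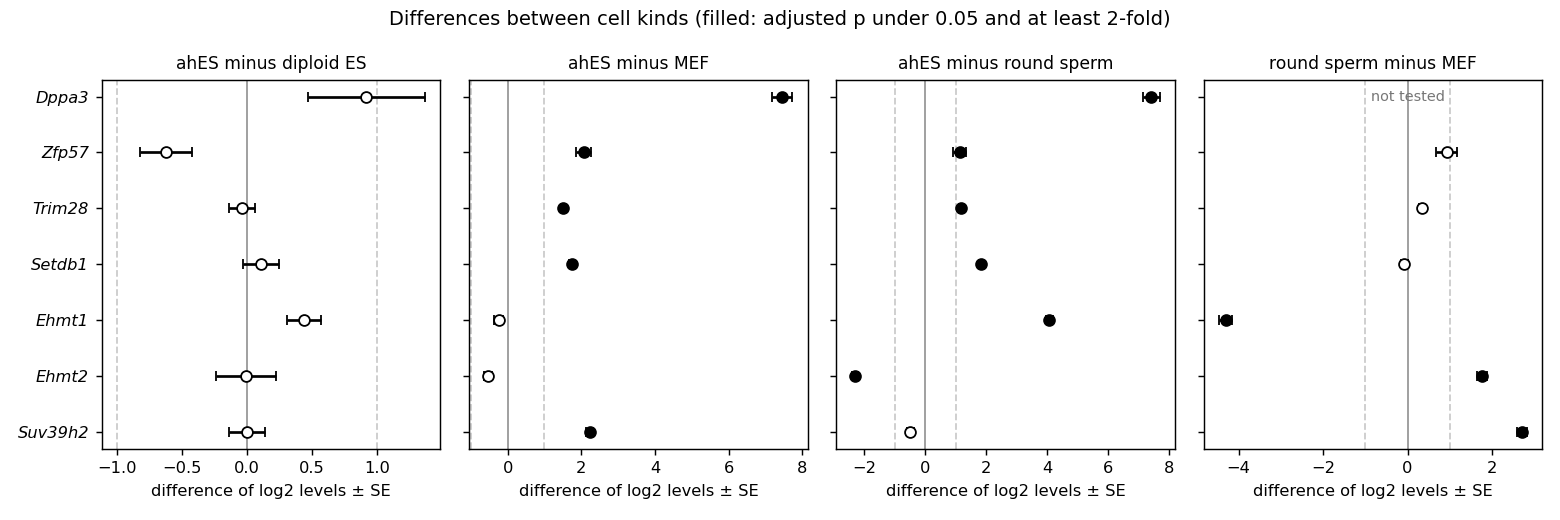
Difference of log2 levels ± SE of each gene in 4 comparisons, with filled points where limma gave an adjusted p under 0.05 and at least a 2-fold difference, and dashed lines at 2-fold; the axes differ between panels. No point is filled for ahES minus diploid ES, 5 of 7 are filled for ahES minus MEF, and Ehmt1 and Ehmt2 lie on opposite sides of 0 in both round sperm panels.

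Among the ES lines, 1 of 7 genes was called in AH129-5 against AH129-NC1 and in AH129-N1 against AH129-NC1, Dppa3 in both, where 4.95% and 2.80% of genes were called. None was called by limma in AH129-5 against AH129-N1, where 5.04% of genes were, or in CS1-1 against R1, where 9.67% were. At an unadjusted p under 0.05 there were 2 and 1 of 7, both lower in AH129-5 in the first case, and Setdb1, lower in CS1-1, in the second. The share of all genes at that limit was not counted, so these counts do not set the members apart from other genes.

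The other genes of the pathway were taken from 4 lists, each gene by its brightest probe set. Of 10 H3K9 readers and HUSH subunits, 0 were called between ahES and diploid ES cells (4 at an unadjusted p under 0.05, 2 in each direction). Atrx, an X-linked chromatin remodeller that reads H3K9 trimethylation, was 1.45-fold higher in ahES cells (0.53 ± 0.10, adjusted p = 0.00105), short of 2-fold. Against MEF, 6 of 10 were higher in ahES cells and 0 lower, with a median of 1.07, where 21.2% of all genes were higher. These were Cdyl2 at 4.79-fold, L3mbtl2 at 3.75-fold, Atrx at 3.39-fold, the HP1 gene Cbx1 at 2.67-fold, the HUSH subunit Mphosph8 at 2.04-fold, and Cbx3, at least 1.38-fold by a dim probe set. Mphosph8 fell short of 2-fold in 6 alternatives (0.96 to 1.00). Against round sperm 8 of 10 were higher and 1 lower, where 73.1% of all genes were called (40.8% higher), and the counts of this and the following lists are read against that. In that comparison Atrx was at least 206-fold, Cdyl 44.8-fold, Cdyl2 34.2-fold and Cbx5, another HP1 gene, 5.19-fold higher in ahES cells. All 4 X-linked genes taken as a dosage check (Pgk1, Hprt, Kdm5c and Rlim) were also higher there, with a median of 6.33. The part of X linkage in the round sperm levels of Atrx, Phf8 and Rlim was not tested.

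Of 11 partners of these enzymes and other H3K9 methyltransferases, 0 were called between ahES and diploid ES cells, also 0 at an unadjusted p under 0.05 by limma. Against MEF 3 were higher, 2 lower and 6 not called, where 42.3% of all genes were called, 21.2% higher and 21.1% lower. The counts of this and the following lists against MEF are read against those shares. Atf7ip2, a partner of SETDB1, was 10.9-fold higher in ahES cells (3.45 ± 0.16, adjusted p = 2.95e-14), Chaf1b, a subunit of the chromatin assembly factor, 2.91-fold and Prdm2 2.31-fold. Mecom, which encodes a PR domain factor, was at least 14.7-fold lower. Mbd1 was 2.04-fold lower, and lost the call in 5 alternatives, with −0.35 when its probe sets were averaged. Against round sperm 6 of 10 were higher and 0 lower, among them Mbd1 at 5.59-fold, Prdm2 at 5.55-fold, Chaf1b at 4.33-fold and Setdb2 at 3.29-fold.

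H3K9 demethylases, which remove the mark, included the gene of these lists highest in round sperm relative to ahES cells. Kdm4d was at least 67.5-fold higher in round sperm than in ahES cells (−7.11 ± 0.41 as ahES minus round sperm, adjusted p = 3.62e-13) and at least 70.6-fold higher than in MEF. Of 11 demethylases 6 were higher in ahES cells than in round sperm, 2 lower and 3 not called, with Kdm3b 11.4-fold, Kdm4c 11.0-fold, the X-linked Phf8 7.58-fold and Jmjd1c 4.11-fold higher, and Phf2 2.31-fold lower. Kdm3a, a demethylase of H3K9 mono- and dimethylation, was 5.55-fold higher in ahES cells than in MEF (2.47 ± 0.07), with Kdm3b at 2.97-fold, Phf8 at 2.31-fold and Phf2 at 3.37-fold lower, so that 3 of 10 were higher and 1 lower. With probe sets averaged Phf8 and Phf2 fell short of 2-fold (0.65 and −0.79). Between ahES and diploid ES cells 0 of 10 were called (1 at an unadjusted p under 0.05 by limma): Phf8 was 1.64-fold higher (0.71 ± 0.12, adjusted p = 4.11e-04).

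Of 10 genes on the list of other imprint maintenance genes, 1 was called between ahES and diploid ES cells, where 4.88% of all genes were. Rlim, an X-linked ubiquitin ligase gene, was 2.28-fold higher in ahES cells (1.19 ± 0.15, adjusted p = 1.29e-05, limma). Without AH129-5 the difference was 0.98, short of 2-fold. Rlim was also 1 of 4 X-linked genes taken as a dosage check, which had a median of 0.56 in this comparison. Hells, a remodeller needed for DNA methylation, and Dnmt1, the maintenance methyltransferase, were 1.38-fold and 1.33-fold lower (adjusted p = 0.00393 and 0.0261), short of 2-fold. Against MEF 4 of 10 were higher and 0 lower: Rif1 at 11.6-fold, Uhrf1, the partner of DNMT1, at 5.46-fold, Hells at 4.34-fold and Ctcf at 2.08-fold, the last short of 2-fold without MEF replicate 3 (0.99) and with probe sets averaged (0.98). Against round sperm 9 of 11 were higher and 1, Nlrp5, at least 4.22-fold lower. In that comparison Rlim was 108-fold, Hells 17.8-fold, Smchd1 15.4-fold and Dnmt1 12.3-fold higher in ahES cells, and Zfp445, another imprint-binding zinc finger gene, 2.28-fold.

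Between round sperm and MEF, 76.1% of all genes were called, 41.7% lower and 34.4% higher, and the lists are read against that. The counts were 1 higher and 6 lower of 10 readers and HUSH subunits, 1 and 5 of 11 partners, 2 and 6 of 11 demethylases and 1 and 5 of 11 other imprint maintenance genes. Atrx was at least 60.7-fold lower, Rlim 67.5-fold, Cdyl 22.9-fold, Smchd1 13.5-fold, Mbd1 11.4-fold and Dnmt1 8.25-fold. The 4 X-linked check genes, Rlim among them, were all lower too, with a median of −5.64. Atf7ip2 was 6.10-fold higher, Kdm3a 3.42-fold and Nlrp5 at least 4.46-fold.

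**Figure D5:**
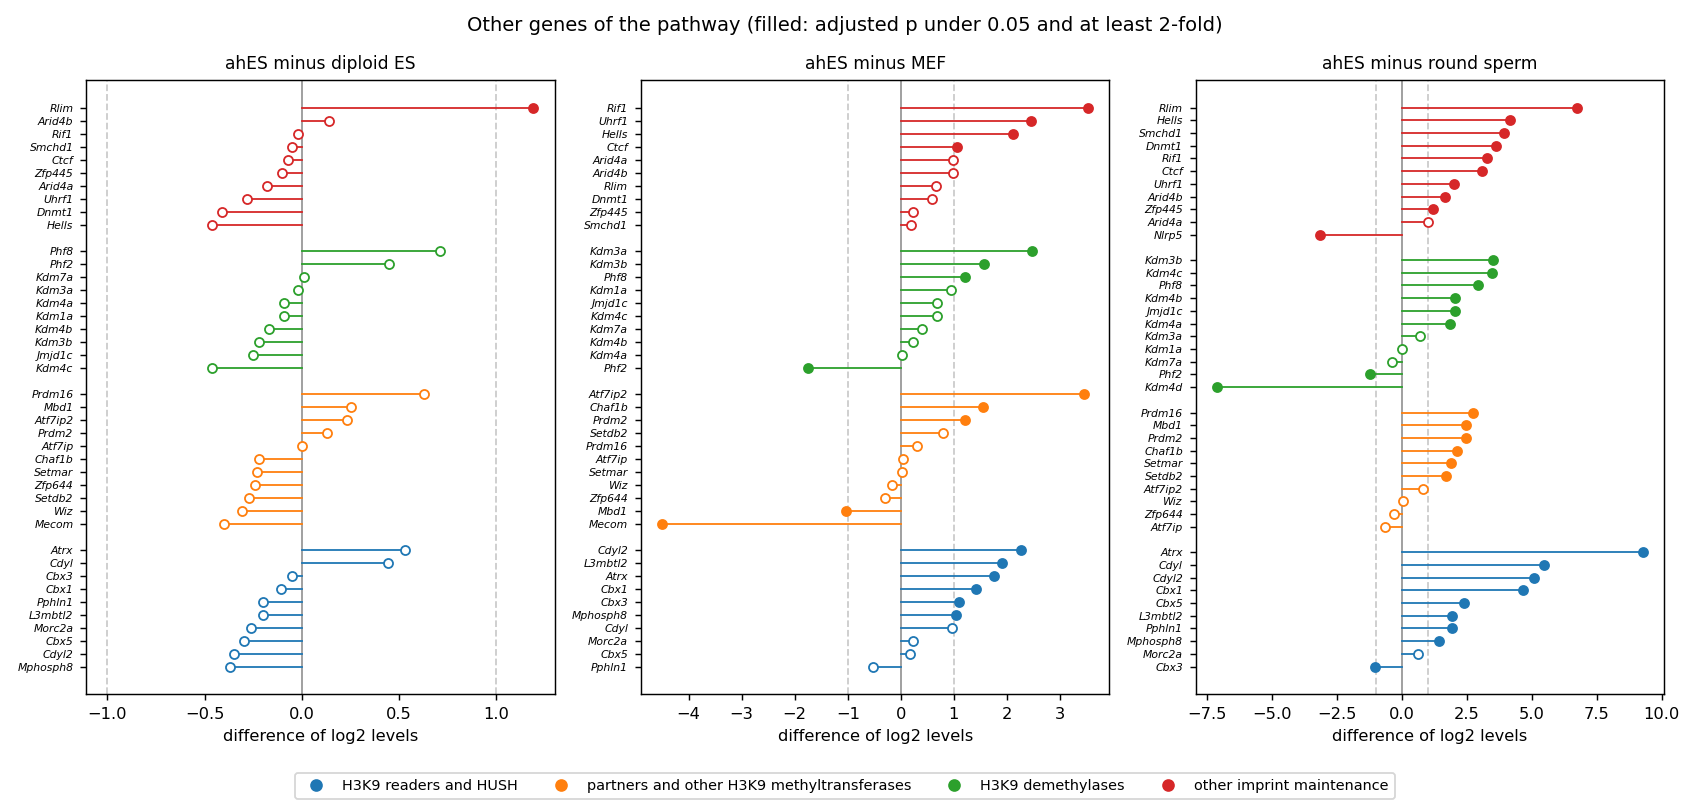
Difference of log2 levels of each tested gene of the 4 pathway lists in 3 comparisons, with filled points where limma gave an adjusted p under 0.05 and at least a 2-fold difference and dashed lines at 2-fold; axes differ between panels. Rlim alone is filled for ahES minus diploid ES, and Kdm4d stands furthest on the round sperm side.

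Genes with the profile most like each member were taken by Pearson's r over the 21 arrays among 15403 genes. Trim28 was followed by Parp1 (r = 0.992), Tfcp2l1 (0.992) and Pou5f1 (0.989). Ehmt1 was followed by Rap2c (0.994), Mtap (0.994) and Ctps (0.993). Setdb1 was followed by Crxos (0.988), Eprn (0.986) and St8sia1 (0.985), and Dppa3 by Pigl (0.983), Tenm4 (0.982) and Iqcb1 (0.980). For Suv39h2 these were Pdcd2l (0.982), Zfp819 (0.981) and Lrrc34 (0.981), and for Ehmt2 Mrrf (0.970), Pde6d (0.968) and Fam216a (0.967). Zfp57 had the lowest values, with Zfp473 (0.954), Ccnf (0.946) and Spint1 (0.946). The 21 arrays are 7 groups of 3, so these values mostly describe shared differences between cell kinds.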

How the data were processed

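Total RNA was labelled with a 3′ IVT kit and hybridised, per the labels' protocols. The authors deposited log2 values of MAS5 signals, per the submitters' processing notes; the log base and scale were read from the values (each array's 2% trimmed mean signal is 500). MAS5's version and present calls were not given in the sources used here. Arrays carry no depth; their number limits the precision. Levels are log2(signal + 9.73), where 9.73 is the typical 20th percentile of an array's signal (the median of 21). Of 45101 probe sets, 64 controls, 932 with several symbols and 9160 with none were left out.

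Probe sets entered a test if each of the 3 arrays in some compared group read above its own 40th percentile. limma 3.58.1 (R 4.3.3, statmod 1.5.0) was run with trended, robust moderation on all tested probe sets; for ahES against diploid ES lines the line was a random block (correlation 0.621). The procedure was also run on simulated data with independent normal noise, where ahES minus MEF was given no spread between lines. Those runs thus do not test that comparison where the ahES lines differ. The members and gene lists were chosen with earlier results of these data known. All member probe sets are named; of each pathway list, up to 4 genes with the smallest adjusted p, any set of 5 or fewer that passed, and the genes with the 3 highest correlations per member. Cbx1, Cbx3, Kdm4d against ahES cells, Zfp445 and single marker genes were named after their values were seen.

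No array stood apart from its group by Dixon's test in any of 26 sets of arrays. Promoters are from RefSeq, GRCm38.p6; the array's probe sequences were not used here. Alternatives were other offsets, normalizations, filters, probe set rules, blocks and omissions of arrays or lines.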

Additional observations from a re-analysis of the deposited data

How the results depend on the processing

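Across 156 results, 3297 alternative values were computed, and 3 signs turned at an adjusted p under 0.05: Suv39h2 in ahES minus round sperm was 0.88 as the mean over its probe sets, and Setdb1 in round sperm minus MEF was 0.43 after quantile normalization and 0.41 after quantile normalization with offset 50 (an alternative added after the data were seen). Among single genes 31 values lost and 12 gained a call, and 3083 kept theirs. Counts of called member genes stayed within 1.5 times of the main count in 164 cases and moved in 4. The exceptions were 1 in ahES minus diploid ES without AH129-NC1, 1 in AH129-5 minus AH129-N1 with median-centred arrays, 0 to 1 there when leaving out each replicate in turn, and 2 in AH129-N1 minus AH129-NC1 with probe sets averaged. The cause was not tested. Replicate numbers did not pair arrays: deviations of same-numbered arrays correlated at −0.06 to 0.05 over 63 pairs. With the replicate number as a block, no call of the 156 results changed, and the member counts were 0, 5, 6 and 3 in the 4 comparisons between cell kinds. Probe sets called between ahES and diploid ES cells numbered 907, 434 with 1 mean per line, 1497 without the line block and 1763 without R1. With offset 50 the 978, 963, 541 and 1940 probe sets called in AH129-5 minus AH129-N1, AH129-5 minus AH129-NC1, AH129-N1 minus AH129-NC1 and CS1-1 minus R1 became 442, 467, 192 and 1094. With the filter at the 60th percentile they became 607, 634, 330 and 1266 of fewer probe sets tested. With 1 probe set per gene in the fit 564, and with probe sets averaged 511, genes were called between ahES and diploid ES cells; these fits test 12880 and 12918 genes, against 23470 probe sets. Of the calls in AH129-5 minus AH129-N1, 71.9% were higher as deposited, 50.5% with median-centred arrays and 59.1% after quantile normalization, and in AH129-5 minus AH129-NC1 59.5%, 38.7% and 44.5%. The median over all probe sets in round sperm minus MEF moved from −0.55 to −0.23 after quantile normalization. Levels near the 40th percentile, such as Dppa3 in MEF and round sperm, give bounds only.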

Other observations

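The Suv39h2 probe set 1433996_at read 9.34, 9.43 and 9.42 on replicate 3 of AH129-5, AH129-N1 and AH129-NC1, above 8.15 to 8.63 on replicates 1 and 2 of these lines. Of 27856 probe sets that passed the filter in any group, 26 had replicate 3 above both other replicates by at least 0.5 in all 3 ahES lines, and between 11 and 33 had such a gap for the other numbers and directions. No other member probe set was among them.

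The line means of Dppa3 and Zfp57 stood in nearly reversed order over the 5 ES lines. Dppa3 ran from AH129-N1 (13.16) through AH129-5 (12.52), CS1-1 (11.51) and R1 (10.96) to AH129-NC1 (10.78), and Zfp57 from R1 (8.79) through CS1-1 (8.74), AH129-NC1 (8.54) and AH129-5 (7.97) to AH129-N1 (7.92). With 5 lines no relation was tested.

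Of the tested list genes, the 3 on the X chromosome (Atrx, Phf8 and Rlim) had differences of 0.53, 0.71 and 1.19 between ahES and diploid ES cells, the direction being higher in ahES cells for each. The 4 X-linked genes taken as a dosage check (Pgk1, Hprt, Kdm5c and Rlim) had a median of 0.56, with 1 called. These genes were picked out after their values were seen.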
